A study of Mus musculus with 36 samples.

Results

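Genes of extracellular matrix turnover were followed through sorted lung alveolar macrophages (AΦ) and monocytes: the matrix metalloproteinases Mmp8, Mmp9, Mmp12, Mmp13, Mmp14 and Mmp19, and their tissue inhibitors Timp1, Timp2 and Timp3. They were chosen by name, and each matched 1 row of the 27562 genes in the expression table, so all 9 members were found. RNA-seq had been made from 36 libraries in 12 groups of 3 libraries, each group a cell population of 1 exposure and time. The study's text gives 3 sequenced mice per exposure and time, so libraries of different populations can come from the same mouse. Which do is not in the labels, and the comparisons between populations take the libraries as separate samples. The mice were chimeras. Hosts were young adult male C57BL/6J mice that carry the CD45.2 form of the leukocyte antigen, and all of them, controls included, were lethally irradiated with the chest under a lead shield, given busulfan and transplanted with marrow of age and sex-matched CD45.1 donors (B6.SJL-Ptprca Pepcb/BoyJ). They then breathed filtered air (FA) or concentrated ambient PM2.5 for 4-weeks or 32-weeks. AΦ were sorted as CD64+ CD11c-high CD11b-low cells and monocytes as Ly6G- MHC II- CD64-low CD11b-high cells from enzymatically dissociated lung.

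At 4-weeks the groups were TR-AΦ (tissue-resident AΦ, CD45.2) and CD45.2 monocytes, each from FA and from PM2.5 mice. At 32-weeks TR-AΦ, BM-AΦ (bone marrow-derived AΦ, CD45.1), CD45.1 monocytes and CD45.2 monocytes were sequenced, again from FA and from PM2.5 mice. The labels number the 32-weeks cells 1 and 2 and leave the 4-weeks cells without a number. Cells numbered 1 were taken as CD45.1 and cells numbered 2 as CD45.2, by a key given for AΦ in the study's supplement and carried over here to the monocytes. Cells without a number were taken as CD45.2 from the study's text. By the study's methods nearly all circulating monocytes of the chimeras were of donor origin. The study also states that the shield kept resident myeloid cells of the lung as CD45.2. CD45.2 monocytes are thus host cells, and their share of the monocyte gate was not examined here. Values are FPKM, fragments scaled to the length of the transcript and to the mapped fragments of the library, so that levels can be compared between genes. Read depth is unknown. Between 15171 and 18244 genes were above 0 in each library.

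Mmps are zinc-dependent proteases that are made as inactive proenzymes and cut collagens, elastin, proteoglycans and many cell surface and signalling proteins. Timps bind the active site of Mmps and block it, so the local balance of Mmps and Timps sets how fast matrix is turned over. In the lung, macrophages and neutrophils are major sources of Mmps, and elastin loss in emphysema is classically tied to the macrophage elastase Mmp12.

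Labelled cell types carried their markers. All 10 monocyte markers examined were lower in AΦ than in monocytes in each of the 3 matched comparisons, and of the 10 AΦ markers 9 were higher in AΦ at 4-weeks and 10 in both 32-weeks comparisons. The 12 neutrophil markers summed to between 1.76 and 56.0 FPKM in 34 libraries, but to 354 and 1100 FPKM in the 4-weeks CD45.2 monocytes numbered 2 of FA and of PM2.5. The 10 interstitial macrophage markers summed to 5.89 and 5.21 FPKM in that pair and to between 175 and 435 FPKM in the other 4 monocyte libraries of 4-weeks. These 2 libraries therefore stand apart, and calls that rest on 4-weeks monocytes are also given without them, an alternative chosen after the data were seen. The levels and orders of level below include them. In such sorted bulk samples a change in the make-up of the sorted cells and a change of RNA per cell cannot be told apart.

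Mmp13, Mmp12 and Mmp8 lie in 1 cluster of 10 Mmp genes on chromosome 9 (mm10, chr9:7272514-7699585 in GENCODE), in that order from the low end, and all 3 are on the plus strand. Mmp13 spans chr9:7272514-7283331, Mmp12 chr9:7344381-7369499 and Mmp8 chr9:7558456-7568485. The other 6 members are spread over the genome. Mmp9 is at chr2:164940780-164955850, Mmp14 at chr14:54431612-54445364, Mmp19 at chr10:128790910-128800824 and Timp2, the only member on the minus strand, at chr11:118301069-118355740. Timp1 (chrX:20870166-20874735) and Timp3 (chr10:86300372-86349506) lie inside the synapsin genes Syn1 and Syn3 on the opposite strand, and the end of Mmp12 overlaps that of Mmp1b, also on the opposite strand. The study's text names the library kit only as SMARTER from Takara, and how strand was used in computing FPKM is not given in the sources used here.

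The stretches of 250 bases before the annotated start site are shown for the 5 members that were higher in CD45.2 monocytes at 32-weeks than at 4-weeks, the members with called changes over time. They are RefSeq sequences of GRCm38.p6, the mm10 assembly, written 5′ to 3′ on the strand of the gene. In the first 2, capitals mark matches on either strand to 3 motifs, the AP-1 motif TGANTCA, the TATA box TATAAA and the ETS motif GGAAGT, which reads ACTTCC on the other strand. In the last 3, which hold no match to these motifs, capitals mark CG dinucleotides.
Mmp12, chr9:7344147-7344396, plus strand: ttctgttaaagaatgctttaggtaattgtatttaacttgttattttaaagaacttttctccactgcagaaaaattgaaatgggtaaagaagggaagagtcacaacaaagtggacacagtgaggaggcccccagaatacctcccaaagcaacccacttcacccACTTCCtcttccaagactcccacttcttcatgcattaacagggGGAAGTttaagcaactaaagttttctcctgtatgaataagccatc
Mmp13, chr9:7272264-7272513, plus strand: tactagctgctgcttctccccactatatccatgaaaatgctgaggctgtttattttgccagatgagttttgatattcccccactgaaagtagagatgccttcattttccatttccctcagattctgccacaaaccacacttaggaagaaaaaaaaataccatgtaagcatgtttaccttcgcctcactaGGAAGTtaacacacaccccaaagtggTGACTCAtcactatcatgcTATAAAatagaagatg
Mmp14, chr14:54431348-54431597, plus strand: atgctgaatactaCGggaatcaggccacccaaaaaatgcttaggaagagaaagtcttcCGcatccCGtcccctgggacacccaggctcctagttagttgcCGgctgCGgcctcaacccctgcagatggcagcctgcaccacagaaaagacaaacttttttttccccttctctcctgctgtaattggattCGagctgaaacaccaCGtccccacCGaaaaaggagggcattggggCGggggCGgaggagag
Timp2, chr11:118355412-118355661, minus strand: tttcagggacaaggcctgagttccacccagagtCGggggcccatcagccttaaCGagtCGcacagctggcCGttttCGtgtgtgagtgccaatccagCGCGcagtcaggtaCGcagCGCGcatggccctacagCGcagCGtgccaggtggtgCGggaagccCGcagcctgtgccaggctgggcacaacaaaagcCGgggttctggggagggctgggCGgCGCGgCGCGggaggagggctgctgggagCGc
Timp3, chr10:86300162-86300411, plus strand: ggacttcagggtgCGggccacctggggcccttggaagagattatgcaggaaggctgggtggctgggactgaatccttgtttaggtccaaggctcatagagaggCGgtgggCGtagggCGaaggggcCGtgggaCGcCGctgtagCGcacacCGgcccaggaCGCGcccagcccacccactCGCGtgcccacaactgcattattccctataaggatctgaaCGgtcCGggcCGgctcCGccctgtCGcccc
The 5 windows differed in their number of CG dinucleotides. Mmp12 held 0 CG dinucleotides and Mmp13 held 1, against a median of 6 over 32851 windows of the same length, while Mmp14 held 10, Timp3 18 and Timp2 21. Mmp13 was the window with the AP-1 motif, from base -35 to -29, and with the TATA box, from -16 to -11. The ETS motif occurred 1 time in Mmp13 and 2 times in Mmp12. Of all windows 6.75% held the AP-1 motif, 12.4% the TATA box and 19.7% the ETS motif on either strand. A second annotated start of Mmp12, with its window at chr9:7347124-7347373, held 1 AP-1 and 1 ETS match. RefSeq windows were found for 7 of the 9 members, and those for Mmp9 and Mmp19 were not used here.

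Mmp19 was the most abundant Mmp of the 6 in all 18 AΦ libraries, and Timp2 the most abundant Timp of the 3 in all 36 libraries. Mmp19, a secreted protease of basement membrane and cartilage components, made up between 57.7% and 87.2% of the summed Mmp FPKM in AΦ, with a median of 78.8%. In monocytes its share ran from 13.6% to 62.1% with a median of 23.6%, and the leading Mmp varied between libraries. It was Mmp8 in 8 monocyte libraries, Mmp12 in 4, Mmp19 in 4 and Mmp9 in 2. Timp2, which blocks Mmps and also takes part with Mmp14 in the activation of the Mmp2 proenzyme, held between 88.3% and 99.3% of the summed Timp FPKM in every library. The order and the sums of the Timps take Timp1 as listed, at a locus that also covers the gene Syn1. Syn1 was at 16.3 to 31.6 FPKM in AΦ, and whether Timp1 fragments were counted under it was not tested. By the values as listed, Mmp mRNA exceeded Timp mRNA in all AΦ libraries, with ratios of the 2 sums between 1.78 and 5.76. In CD45.2 monocytes of 32-weeks the ratio lay between 0.73 and 2.74 with a median of 0.974, against 1.41 to 5.21 with a median of 3.26 in those of 4-weeks, or 1.41 to 4.79 with a median of 2.57 without the pair with high neutrophil markers.

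**Figure D1:**
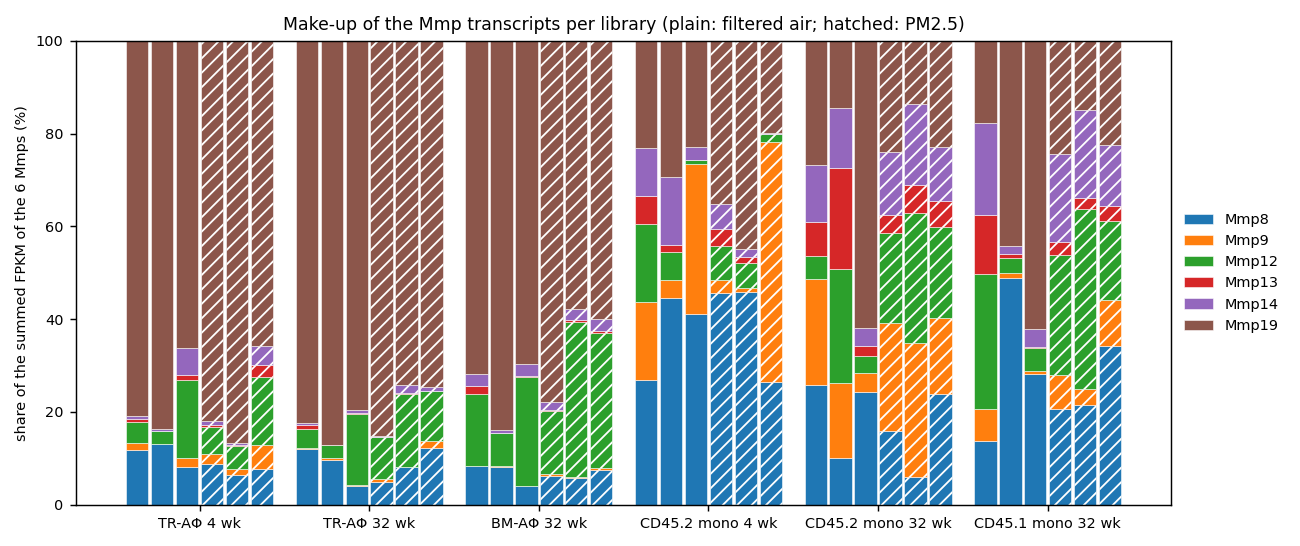
Share of each of the 6 Mmps in their summed FPKM, in percent, with 1 stacked bar per library, grouped by cell population and time and with FA plain and PM2.5 hatched. Mmp19 fills between 57.7% and 87.2% of every AΦ bar, while the monocyte bars differ between libraries, with Mmp19 shares from 13.6% to 62.1%.

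The members kept different orders of level over the 6 cell populations, each with 6 libraries, FA and PM2.5 included. Timp2 was highest in CD45.2 monocytes of 32-weeks, with a median of 74.7 FPKM (53.4 to 125), followed by BM-AΦ with 51.5 (32.6 to 53.9), TR-AΦ of 4-weeks with 32.7 (18.9 to 51.4), TR-AΦ of 32-weeks with 29.5 (24.4 to 34.4), CD45.1 monocytes with 28.6 (18.6 to 43.9) and CD45.2 monocytes of 4-weeks with 16.7 (9.75 to 20.8). Mmp19 was highest in BM-AΦ with a median of 111 FPKM (76.4 to 181), then TR-AΦ of 4-weeks with 68.5 (54.1 to 95.4) and TR-AΦ of 32-weeks with 63.8 (59.8 to 124), and it was lower in the 3 monocyte populations, with medians between 11.1 and 17.7. Each of these populations overlapped its neighbour in the order. For the other 7 members, too, every neighbour in the order overlapped.

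Mmp12, the macrophage elastase, had its highest median in BM-AΦ at 39.3 FPKM (7.23 to 69.9), then CD45.2 monocytes of 32-weeks at 12.8 (4.88 to 36.6), CD45.1 monocytes at 8.99 (4.83 to 28.1), TR-AΦ of 32-weeks at 7.66 (2.03 to 23.8), TR-AΦ of 4-weeks at 4.81 (2.96 to 17.5) and CD45.2 monocytes of 4-weeks at 3.26 (0.224 to 5.25). Mmp8, the collagenase that neutrophils store in granules, varied least between populations, with medians from 7.83 FPKM in TR-AΦ of 4-weeks to 16.5 in CD45.1 monocytes. Mmp9, a gelatinase also stored by neutrophils, had medians of 0.293 and 0.314 FPKM in TR-AΦ and BM-AΦ of 32-weeks and of 13.2 in CD45.2 monocytes of 32-weeks. The collagenase Mmp13, the membrane-bound protease Mmp14 and Timp3, an inhibitor that binds to matrix and also blocks some ADAM proteases, were likewise highest in CD45.2 monocytes of 32-weeks, with medians of 5.75, 10.1 and 3.95 FPKM. Timp1 was listed at 0 in 27 of 36 libraries and reached at most 2.5 FPKM, in 1 BM-AΦ library of PM2.5, so it passed no filter and was not tested. The table gives Timp1 a locus of chrX:20848542-20921004 that also covers Syn1. Syn1 was between 16.3 and 31.6 FPKM in AΦ and at most 2.77 FPKM in monocytes. Whether fragments of Timp1 were counted under Syn1 was not tested, so the low Timp1 values may not give its level. The locus given for Mmp12, chr9:7344396-7388047, also covers Mmp1b, which was not listed under its own name. Whether fragments of Mmp1b enter the Mmp12 values was not tested.

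**Figure D2:**
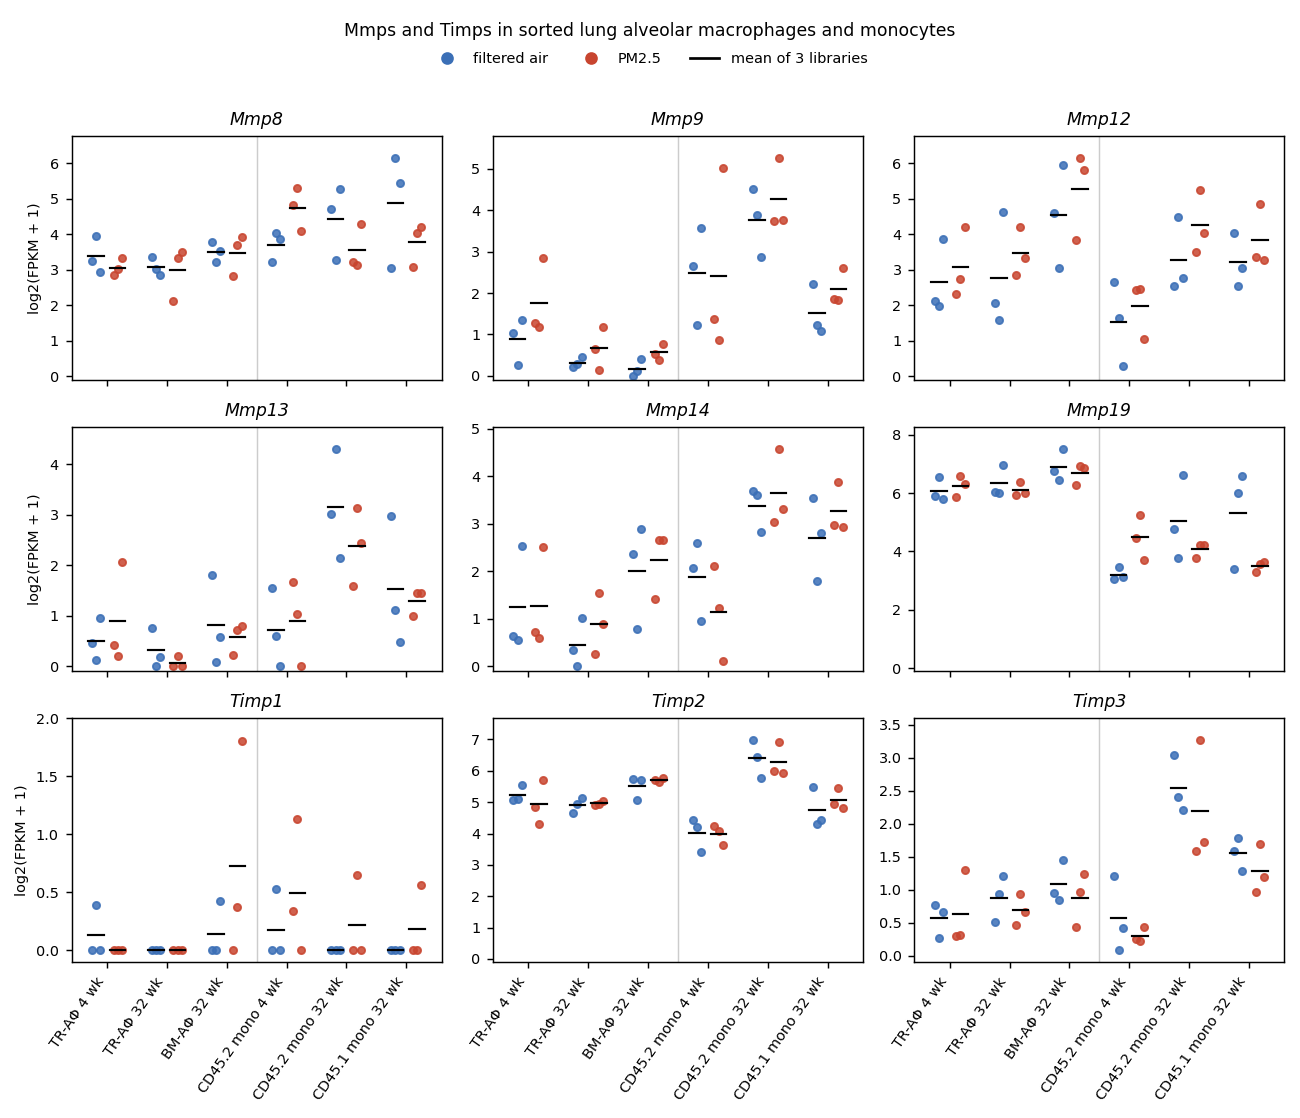
Level of each member as log2(FPKM + 1) in the 12 groups, with 1 point per library, FA in blue, PM2.5 in red and a bar at the mean of 3 libraries. Mmp19 has its highest medians in AΦ, Timp2 and Timp3 have theirs in CD45.2 monocytes of 32-weeks, and Timp1 is at 0 in 27 of 36 libraries.

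Cell types were compared with limma on log2(FPKM + 1), in which 8 members passed a mean of 1 FPKM over all 36 libraries, and p-values were adjusted by the Benjamini-Hochberg method over all 13307 genes tested. FA and PM2.5 libraries entered each of these contrasts with equal weight. At 4-weeks Mmp19 and Timp2 were higher and Mmp8 was lower in TR-AΦ than in CD45.2 monocytes. These 3 calls of 8 members stand against 48.2% of all genes, of which 22.6% were higher and 25.5% lower. At an unadjusted p under 0.05 there were 4 of 8, against 53.4% of all genes. Mmp19 was 58.5, 92.8 and 54.1 FPKM in FA and 56.9, 95.4 and 78.5 in PM2.5 TR-AΦ. In the monocytes it was 7.23, 10.1 and 7.63 in FA and 21.0, 37.4 and 12.1 in PM2.5. All 6 TR-AΦ libraries were above all 6 monocyte libraries, by a log2 fold change of 2.32 ± 0.42 (SE, adjusted p = 3.93e-05). The groups did not overlap for 1 of 8 members, against 29.8% of all genes. Timp2 was 1.08 ± 0.25 higher on the log2 scale (adjusted p = 0.000751), with overlapping groups. The log2 fold change of Mmp8 was -1.0 ± 0.40 (adjusted p = 0.0431), and its call held in 4 of 12 runs that left out 1 library. It was lost without either 4-weeks TR-AΦ FA library numbered 0 or 2, TR-AΦ PM2.5 library numbered 0 or 1, monocyte FA library numbered 1 or 2, or monocyte PM2.5 library numbered 0 or 1 (log2 fold changes from -0.99 to -0.86). It was also lost with TPM (-0.65, adjusted p = 0.152), with quantile normalization (-0.9, adjusted p = 0.0556) and with no filter on low values (adjusted p = 0.0743). Mmp9 (log2 fold change -1.13 ± 0.51, adjusted p = 0.07), Mmp12 (1.12 ± 0.60, adjusted p = 0.131), Mmp13 (-0.11 ± 0.43), Mmp14 (-0.25 ± 0.46) and Timp3 (0.16 ± 0.26) did not pass the threshold.

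The pair of 4-weeks monocyte libraries with high neutrophil markers held the highest Mmp9 of their groups, 10.8 and 31.5 FPKM against 0.818 to 5.28 in the other 4. Neutrophil markers were lower in TR-AΦ for 3 of the 6 tested. Mmp9 was called as lower in TR-AΦ in 4 of 12 runs without 1 library, those without the TR-AΦ of PM2.5 numbered 2, the monocytes of FA numbered 1 and the monocytes of PM2.5 numbered 0 or 1 (-1.52 to -1.39). Without the pair the log2 fold change of Mmp9 was -0.21 (adjusted p = 0.707). Mmp19 and Timp2 were still called without the pair and Mmp8 was not (log2 fold change -1.12, adjusted p = 0.0503). The TR-AΦ numbered 2 of 4-weeks had neutrophil marker sums of 23.5 and 56.0 FPKM, above the 1.76 to 6.89 of the other 4. Without all 4 libraries numbered 2 Timp2 was no longer called (0.57, adjusted p = 0.0924) and Mmp14 was called as lower in TR-AΦ (-1.37, adjusted p = 0.0193). Mmp9 was not called in that run either (-0.60, adjusted p = 0.223). The part of other cells in these differences was not tested.

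At 32-weeks 6 of 8 members differed between TR-AΦ and CD45.2 monocytes, against 47.3% of all genes, and 7 of 8 at an unadjusted p under 0.05, against 52.9%. Mmp19 was again higher in TR-AΦ, and Mmp9, Mmp13, Mmp14, Timp2 and Timp3 were lower, with 23.6% of all genes higher and 23.7% lower. The 2 groups did not overlap for these 5 lower members, against 26.9% of all genes. Mmp9 in TR-AΦ was 0.165, 0.216 and 0.370 FPKM in FA and 0.568, 0.113 and 1.28 in PM2.5. CD45.2 monocytes held 22.0, 13.8 and 6.31 FPKM in FA and 12.4, 37.5 and 12.7 in PM2.5. Mmp9 was thus lower in every TR-AΦ library, by 3.52 ± 0.51 on the log2 scale (adjusted p = 1.81e-06).

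Mmp14 in TR-AΦ was 0.264, 0 and 1.03 FPKM in FA and 0.201, 1.90 and 0.853 in PM2.5. In CD45.2 monocytes it was 11.9, 11.2 and 6.14 FPKM in FA and 7.20, 22.9 and 8.97 in PM2.5. The log2 fold change was -2.84 ± 0.46 (adjusted p = 1.13e-05). Mmp13 (-2.58 ± 0.43, adjusted p = 1.59e-05), Timp3 (-1.59 ± 0.26, adjusted p = 1.36e-05) and Timp2 (-1.40 ± 0.25, adjusted p = 3.92e-05) were also lower, so Timp2 stood on the other side of monocytes than at 4-weeks. Mmp19 was 1.66 ± 0.42 higher in TR-AΦ (adjusted p = 0.00174), with 1 overlapping monocyte library at 96.4 FPKM. All 6 calls held in each of 12 runs that left out 1 library. Mmp8 (-0.95 ± 0.40, adjusted p = 0.0545) and Mmp12 (-0.64 ± 0.60, adjusted p = 0.404) did not pass. Mmp8 did without the TR-AΦ of PM2.5 numbered 2, the monocytes of FA numbered 1 or those of PM2.5 numbered 1 (-1.24 to -1.06). Interstitial macrophage markers moved with the lower members, 8 of 9 tested being lower and 1 higher in TR-AΦ, where they summed to between 239.98 and 369 FPKM against 998 to 3693 in these monocytes, and Ccl8 was listed at 0 in all 6 TR-AΦ libraries. Their part was not tested.

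Of donor cells at 32-weeks, BM-AΦ differed from CD45.1 monocytes in 3 of 8 members, Mmp19, Timp2 and Mmp9, against 50.9% of all genes, of which 27.1% were higher and 23.8% lower in BM-AΦ. At an unadjusted p under 0.05 there were 5 of 8, against 55.8%. Mmp19 in BM-AΦ was 107, 85.5 and 181 FPKM in FA and 76.4, 121 and 114 in PM2.5. The CD45.1 monocytes held 9.44, 63.1 and 94.2 in FA and 8.77, 10.8 and 11.5 in PM2.5, so 2 FA monocyte libraries stood far above the other 4 and 1 of them within the BM-AΦ range. Mmp19 was 2.38 ± 0.42 higher in BM-AΦ on the log2 scale (adjusted p = 2.84e-05). Timp2 was 0.70 ± 0.25 higher (adjusted p = 0.0214) in overlapping groups, a call that held in 8 of 12 runs without 1 library. It was lost without the BM-AΦ of FA numbered 0, the monocytes of FA numbered 1 or 2 or those of PM2.5 numbered 2 (0.59 to 0.64). Mmp9 was 1.44 ± 0.51 lower (adjusted p = 0.0202) with no overlap, the only such member of 8, against 30.8% of all genes. Its call was lost without the CD45.1 monocytes of FA numbered 0 (-1.26, adjusted p = 0.0546), where Mmp8 was called as lower (-1.29, adjusted p = 0.00265). Those monocytes held the highest interstitial macrophage marker sum of their kind, 1081 FPKM against 338 to 1007 in the other 5. When FPKM were rescaled to TPM, which moved the median log2 fold change of all genes to 0.288, Mmp9 was no longer called (-0.76, adjusted p = 0.131) and Mmp12 was called as higher in BM-AΦ (1.62, adjusted p = 0.0121), from 1.38 ± 0.60 (adjusted p = 0.0589) as deposited. Mmp12 was also called in 4 of 12 runs without 1 library, those without the BM-AΦ of FA numbered 1 or of PM2.5 numbered 0 and the monocytes of FA numbered 0 or of PM2.5 numbered 1 (1.58 to 1.75).

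**Figure D3:**
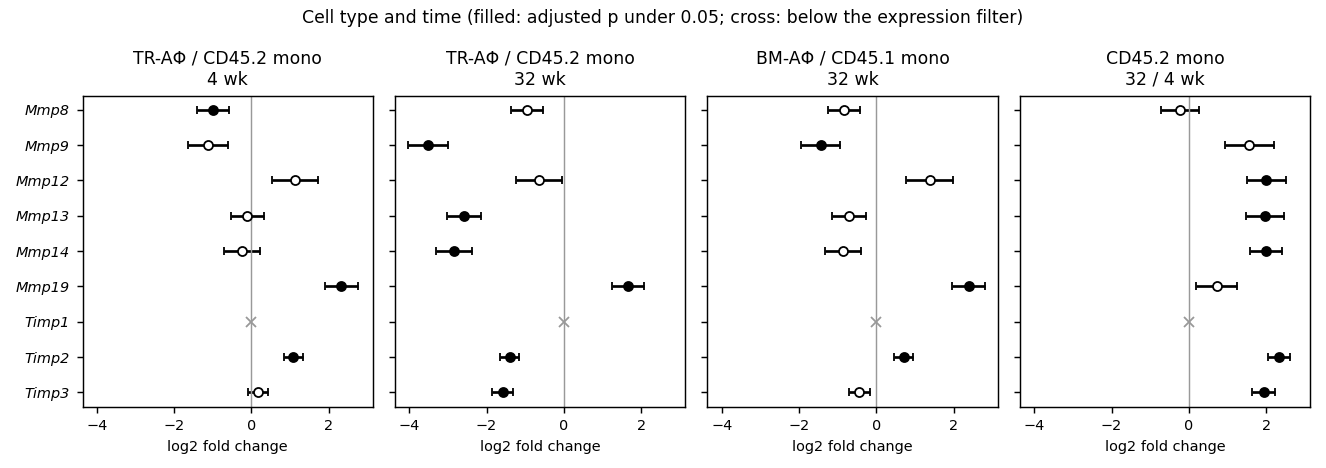
Log2 fold change of each member with its SE, for AΦ against monocytes in the first 3 panels and for 32-weeks against 4-weeks in CD45.2 monocytes in the fourth. Filled points have an adjusted p under 0.05 and a cross marks a member below the filter, which was not tested. Mmp19 is at 2.32, 1.66 and 2.38 in the first 3 panels, and Timp2 changes side between the first and the second.

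In CD45.2 monocytes 5 of 8 members tested were higher at 32-weeks than at 4-weeks and none was called lower, with FA and PM2.5 libraries weighted equally. Of all genes 14.9% were called, 7.06% higher and 7.83% lower. At an unadjusted p under 0.05 there were 6 of 8 members, against 27.4% of all genes. The members that rose were Timp2, Timp3, Mmp14, Mmp12 and Mmp13. Timp2 was 20.8, 17.5 and 9.75 FPKM in FA and 18.1, 16.0 and 11.3 in PM2.5 at 4-weeks. At 32-weeks it was 125, 86.6 and 53.4 FPKM in FA and 62.7, 121 and 59.6 in PM2.5. Every library of 32-weeks was above every library of 4-weeks, by 2.33 ± 0.28 on the log2 scale (adjusted p = 0.000186).

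Timp3 was 1.31, 0.0607 and 0.334 FPKM in FA and 0.194, 0.166 and 0.349 in PM2.5 at 4-weeks. It was 7.21, 4.28 and 3.61 in FA and 2.01, 8.67 and 2.28 in PM2.5 at 32-weeks, again with no overlap and with a log2 fold change of 1.93 ± 0.29 (adjusted p = 0.000764). Mmp14 rose without overlap from between 0.0811 and 5.01 FPKM to between 6.14 and 22.9 (2.0 ± 0.42, adjusted p = 0.00528). The groups did not overlap for 3 of 8 members, against 7.72% of all genes. Mmp12 had a median of 3.26 FPKM (0.224 to 5.25) at 4-weeks and of 12.8 (4.88 to 36.6) at 32-weeks (2.0 ± 0.50, adjusted p = 0.015). Mmp13 had medians of 0.775 (0 to 2.15) and 5.75 (1.98 to 18.7), on the log2 scale a difference of 1.96 ± 0.48 (adjusted p = 0.0136). Mmp9 (1.56 ± 0.63, adjusted p = 0.123), Mmp19 (0.72 ± 0.52, adjusted p = 0.422) and Mmp8 (-0.24 ± 0.49, adjusted p = 0.81) did not pass.

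The 5 calls held in each of 12 runs that left out 1 library. Mmp9 was called as well without the PM2.5 library of 4-weeks numbered 2 (2.21, adjusted p = 0.00667). Without the pair of 4-weeks libraries with high neutrophil markers 4 members were called. Timp2, Timp3 and Mmp14 kept their calls, Mmp9 was called (2.48, adjusted p = 0.00487), and Mmp12 (1.46, adjusted p = 0.0923) and Mmp13 (1.56, adjusted p = 0.0876) were not. Interstitial macrophage markers moved with these members. All 9 tested of the 10 on that list were higher at 32-weeks, with a median log2 fold change of 4.31, and they summed to between 998 and 3693 FPKM at 32-weeks and between 5.21 and 435 at 4-weeks. Of that list Cd5l was listed at 0 in all 6 libraries of 4-weeks and none was in all 6 of 32-weeks. Of the 10 monocyte markers 4 were lower at 32-weeks, with sums between 1327 and 3507 FPKM against 3639 to 4818. The part of these cells in the rise of the members was not tested, and exposure length, age and cohort cannot be told apart.

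**Figure D4:**
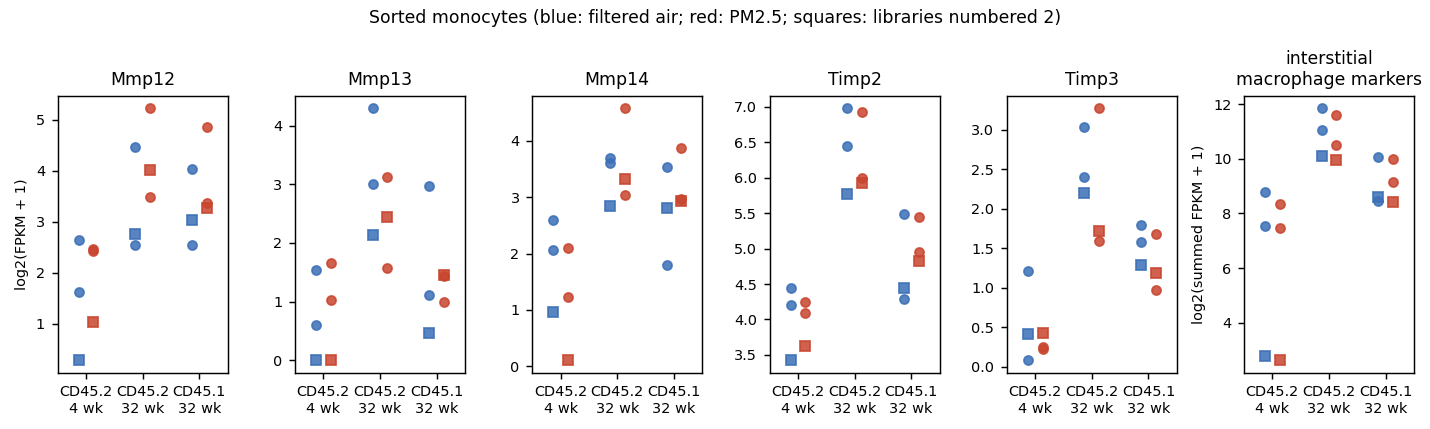
The 5 members that were higher at 32-weeks, as log2(FPKM + 1), and the summed FPKM of 10 interstitial macrophage markers on the same kind of scale, in monocytes of 3 populations with 1 point per library. FA is blue, PM2.5 is red and squares are the libraries numbered 2. The marker sum runs from 998 to 3693 FPKM in CD45.2 monocytes of 32-weeks and from 5.21 to 435 in those of 4-weeks.

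The same time points were compared in TR-AΦ. Of the 5 members that passed the filter in AΦ (Mmp8, Mmp12, Mmp14, Mmp19 and Timp2), limma called none between 32-weeks and 4-weeks in FA (0.782% of all genes called) and none in PM2.5 (1.05%), and at an unadjusted p under 0.05 the counts were also 0 in both, against 12.1% and 15.2% of all genes. In FA the log2 fold changes ran from -0.79 ± 0.68 for Mmp14 to 0.25 ± 0.33 for Mmp19, and in PM2.5 from -0.37 ± 0.68 for Mmp14 to 0.38 ± 0.92 for Mmp12. The difference between cell types was tested as an interaction, the change over time in TR-AΦ minus that in CD45.2 monocytes, which uses the same libraries as the comparisons above. It was called for 5 of 8 members, all with a lower change in TR-AΦ, against 7.88% of all genes, of which 4.35% were lower and 3.53% higher. At an unadjusted p under 0.05 there were 6 of 8, against 20.3%. It was -2.48 ± 0.36 for Timp2 (adjusted p = 6.38e-05), -1.75 ± 0.37 for Timp3 (adjusted p = 0.00307), -2.58 ± 0.66 for Mmp14 (adjusted p = 0.0131), -2.47 ± 0.61 for Mmp13 (adjusted p = 0.0105) and -2.39 ± 0.72 for Mmp9 (adjusted p = 0.0391). The call for Mmp9 held in 10 of 24 runs without 1 library and the other 4 held in all. It was lost (-2.42 to -2.0) without the TR-AΦ of FA numbered 0 or 2 or of PM2.5 numbered 2 at 4-weeks, any TR-AΦ of FA or those of PM2.5 numbered 0 or 1 at 32-weeks, the monocytes of FA numbered 1 or of PM2.5 numbered 0 or 1 at 4-weeks, or those of FA numbered 0 or 1 or of PM2.5 numbered 1 at 32-weeks. It was also lost with TPM (-1.85, adjusted p = 0.0707), with no filter on low values (adjusted p = 0.0599) and with only the groups compared (adjusted p = 0.104). All 9 interstitial macrophage markers tested had a lower change in TR-AΦ too. Without the pair of monocyte libraries with high neutrophil markers Timp2, Timp3 and Mmp9 were called, and Mmp13 (-2.07, adjusted p = 0.0539) and Mmp14 (-2.09, adjusted p = 0.067) were not. Without all 4 libraries of 4-weeks numbered 2 the values were -1.67 for Mmp13 (adjusted p = 0.135) and -1.46 for Mmp14 (adjusted p = 0.17), whose level was 4.74 and 4.67 FPKM in the TR-AΦ numbered 2 and between 0.474 and 0.646 in the other 4 TR-AΦ of 4-weeks.

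Origin was compared at 32-weeks within each cell type. Between BM-AΦ and TR-AΦ limma called 0 of 5 members, against 0.316% of all genes, while 4 of 5 had an unadjusted p under 0.05, against 7.45% of all genes. These 4 all had higher means in BM-AΦ, with overlapping groups, and none passed after adjustment. Timp2 was 52.8, 32.6 and 51.7 FPKM in FA and 51.3, 48.5 and 53.9 in PM2.5 BM-AΦ. In TR-AΦ it was 24.4, 29.6 and 34.4 in FA and 29.2, 29.4 and 32.1 in PM2.5. The lowest BM-AΦ library was below the highest TR-AΦ library, and the log2 fold change was 0.67 ± 0.20 (adjusted p = 0.274). Mmp12 was 23.1, 7.23 and 60.9 FPKM in FA and 13.3, 69.9 and 55.5 in PM2.5 BM-AΦ, and 3.16, 2.03, 23.8, 6.23, 17.4 and 9.09 in the same order in TR-AΦ. Its log2 fold change of 1.78 ± 0.65 had an adjusted p of 0.453. Mmp14 (1.45 ± 0.48, adjusted p = 0.367) and Mmp19 (0.57 ± 0.23, adjusted p = 0.55) were further members of this kind, and Mmp8 differed by 0.46 ± 0.26 (adjusted p = 0.792). Dendritic cell markers moved in the same direction, with sums between 17.97 and 72.4 FPKM in BM-AΦ and between 6.55 and 14.9 in TR-AΦ. No marker of the 9 was listed at 0 throughout either, and 2 of 5 tested were called higher. Interstitial macrophage marker sums had medians of 415 FPKM in BM-AΦ and 279 in TR-AΦ, and monocyte marker sums 330 and 224, with overlapping ranges. Neutrophil marker sums went the other way, with medians of 6.12 and 8.25. The part of these cells was not tested.

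In monocytes the direction for Timp2 was the opposite. It was lower in CD45.1 than in CD45.2 monocytes, the only member called of 8, against 0.669% of all genes, of which 0.591% were lower and 0.0778% higher. At an unadjusted p under 0.05 there were 4 of 8, against 9.59%. CD45.1 monocytes held 43.9, 18.6 and 20.7 FPKM in FA and 29.9, 42.7 and 27.3 in PM2.5, all below the lowest CD45.2 value of 53.4, and the log2 fold change was -1.43 ± 0.28 (adjusted p = 0.0304). This call held in 5 of 12 runs without 1 library, with values from -1.62 to -1.27. It was lost without the CD45.1 monocytes of FA numbered 1 or 2 or of PM2.5 numbered 0 or 2, or the CD45.2 monocytes of FA numbered 0 or 1 or of PM2.5 numbered 1. Mmp9 was also lower in all CD45.1 libraries, at 1.13 to 5.05 FPKM against 6.31 to 37.5 (-2.20 ± 0.63, adjusted p = 0.173), and these 2 members without overlap compare with 1.18% of all genes. Mmp13 (-1.36 ± 0.48, adjusted p = 0.319) and Timp3 (-0.95 ± 0.29, adjusted p = 0.209) had negative values that did not pass. Interstitial macrophage markers summed to between 338 and 1081 FPKM in CD45.1 and 998 to 3693 in CD45.2 monocytes, and 4 of 9 tested were called lower in CD45.1. Their part was not tested.

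The interaction of origin with cell type, BM-AΦ minus TR-AΦ less the same difference in monocytes, was 2.10 ± 0.36 for Timp2 (adjusted p = 0.00175) and held in all 24 runs without 1 library. It was the 1 member called of 8, against 1.08% of all genes, of which 0.924% were higher and 0.158% lower, and 6 of 8 had an unadjusted p under 0.05, against 10.3%. The values for Mmp9 (2.08 ± 0.72, adjusted p = 0.224), Mmp12 (2.02 ± 0.85, adjusted p = 0.37), Mmp14 (1.97 ± 0.66, adjusted p = 0.192), Mmp13 (1.87 ± 0.61, adjusted p = 0.183) and Timp3 (1.15 ± 0.37, adjusted p = 0.175) did not pass, except that Mmp13 was called without the CD45.1 monocytes of FA numbered 0 (2.23, adjusted p = 0.0466). Interstitial macrophage markers moved alike, 4 of 9 tested having a higher value and none a lower one.

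PM2.5 was compared with FA in each of the 6 cell populations, over the 5 members tested in AΦ and the 8 in monocytes. Limma called 0 members in all 6, where it called 0.0079% of all genes in TR-AΦ at 4-weeks, 0% at 32-weeks, 0.0158% in BM-AΦ, 0.00778% in CD45.2 monocytes at 4-weeks and 0% in CD45.2 and in CD45.1 monocytes at 32-weeks. At an unadjusted p under 0.05 there was 1 member in 1 population, Mmp19 in CD45.1 monocytes, where 4.74% of all genes were under it. It was 0 in TR-AΦ of 4-weeks and 32-weeks (2.94% and 3.13% of all genes), BM-AΦ (2.05%) and CD45.2 monocytes of 4-weeks and 32-weeks (2.12% and 4.25%). With 3 mice against 3 no exact two-sided permutation test can go below a p of 0.1. In TR-AΦ of 4-weeks the log2 fold changes of the 5 members tested ran from -0.32 ± 0.37 for Mmp8 to 0.43 ± 0.92 for Mmp12. They ran from -0.23 ± 0.33 for Mmp19 to 0.70 ± 0.92 for Mmp12 in TR-AΦ of 32-weeks and from -0.22 ± 0.33 for Mmp19 to 0.74 ± 0.92 for Mmp12 in BM-AΦ. Of the 5 members tested Mmp12 thus had the highest value in each AΦ population, none of them larger than its SE. Mmp9, Mmp13, Timp1 and Timp3 were below the filter in AΦ and not tested. The study reports Mmp9 as upregulated in TR-AΦ by the shorter exposure. In TR-AΦ of 4-weeks Mmp9 was 1.04, 0.192 and 1.56 FPKM in FA and 1.41, 1.27 and 6.24 in PM2.5, which overlap. The 6.24 was the library numbered 2, with a high neutrophil marker sum. At 32-weeks its means were 0.250 and 0.654 FPKM in TR-AΦ and 0.134 and 0.490 in BM-AΦ, FA first, also overlapping. The exposure effect on the 5 members did not pass the threshold as different between TR-AΦ of 32-weeks and 4-weeks (0.0079% of all genes called), nor between BM-AΦ and TR-AΦ (0.0158%), and 0 members had an unadjusted p under 0.05 in either test (3% and 1.89% of all genes).

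In CD45.2 monocytes of 4-weeks the values of Mmp8 and Mmp19 in every PM2.5 library were above those in every FA library. Mmp8 was 8.38, 15.3 and 13.6 FPKM in FA and 27.4, 38.1 and 16.1 in PM2.5 (log2 fold change 1.03 ± 0.69, adjusted p = 1, exact permutation p = 0.1). Mmp19 was 7.23, 10.1 and 7.63 in FA and 21.0, 37.4 and 12.1 in PM2.5 (1.27 ± 0.74, adjusted p = 1, exact permutation p = 0.1). These 2 of 8 members compare with 6.57% of all genes whose groups did not overlap, and neither passed the test. Without the pair with high neutrophil markers the values were 1.43 ± 0.88 for Mmp8 and 1.61 ± 0.94 for Mmp19 (adjusted p = 1 for both). At 32-weeks both genes had values in the other direction. In CD45.1 monocytes Mmp19 was 9.44, 63.1 and 94.2 FPKM in FA and 8.77, 10.8 and 11.5 in PM2.5, which overlap (-1.82 ± 0.74, adjusted p = 0.946, exact permutation p = 0.3). Mmp8 was 7.33, 69.9 and 42.7 in FA and 7.41, 15.5 and 17.4 in PM2.5 (-1.11 ± 0.69, adjusted p = 0.976). In CD45.2 monocytes the values were -0.96 ± 0.74 for Mmp19 and -0.88 ± 0.69 for Mmp8. Whether the effect of PM2.5 differed between 4-weeks and 32-weeks monocytes was not tested. The other members lay between -0.77 ± 0.68 for Mmp13 in CD45.2 monocytes of 32-weeks and 0.99 ± 0.71 for Mmp12 in the same cells.

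**Figure D5:**
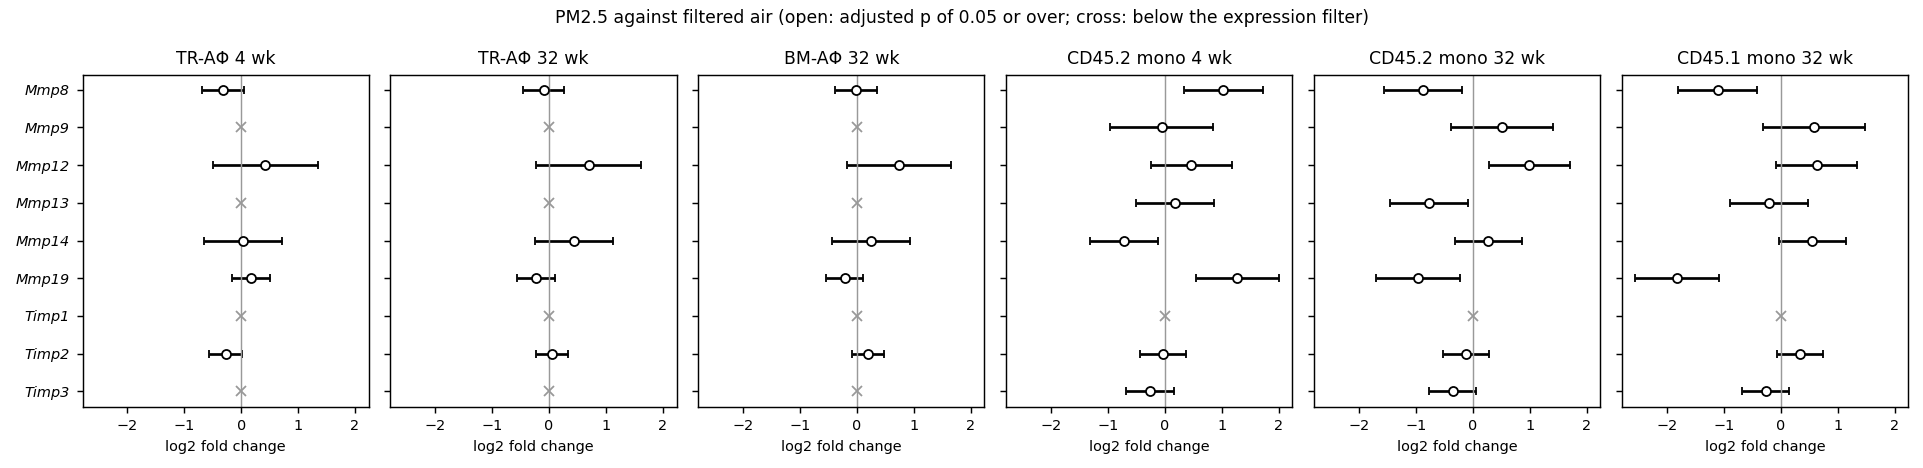
Log2 fold change of PM2.5 against FA for each member with its SE in the 6 cell populations. All points are open, since no adjusted p was under 0.05, and crosses mark members below the filter. The lowest value is -1.82, for Mmp19 in CD45.1 monocytes, and the highest 1.27, for Mmp19 in CD45.2 monocytes of 4-weeks.

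Other genes of the pathway were followed as 4 lists. Of 18 further Mmps and Timps on the first, 14 were matched in the table. None passed the filter in AΦ, and the 1 that passed in monocytes was not called in any comparison. Their summed level was at most 5.40 FPKM in any library. Of 16 ADAM and ADAMTS proteases, which shed membrane proteins or cut proteoglycans, 8 were tested across cell types. Against monocytes, 1 was higher and 3 were lower in TR-AΦ at 4-weeks and likewise at 32-weeks, and 2 were higher and 3 were lower in BM-AΦ. Of all genes 48.2%, 47.3% and 50.9% were called in these comparisons. The list median was -0.33, -0.13 and -0.17 on the log2 scale, against -0.02, 0 and 0.03 over all genes. Adamts2, which trims procollagen, was higher in AΦ (1.65 ± 0.13, 2.0 ± 0.13 and 1.87 ± 0.13), and Adam8 (-3.18 ± 0.40, -2.90 ± 0.40 and -1.80 ± 0.40), Adam19 (-1.48 ± 0.26, -3.91 ± 0.26 and -2.09 ± 0.26) and Adam15 (-0.46 ± 0.13, -0.93 ± 0.13 and -0.54 ± 0.13) were lower. Adam9 was higher in BM-AΦ (0.52 ± 0.16). With time in CD45.2 monocytes 2 of 7 rose, Adam19 (1.74 ± 0.24) and Adam15 (0.42 ± 0.13), and none fell, against 14.9% of all genes. Without the pair of 4-weeks monocytes with high neutrophil markers Adam19 (1.7 ± 0.28) was still called and Adam15 (0.26 ± 0.11, adjusted p = 0.193) was not, and Adamts10 was called as lower (-0.7 ± 0.19). Adam19 was the gene of this list called in the interactions of time (-2.43 ± 0.36) and of origin (1.83 ± 0.36) with cell type.

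Of 24 genes that activate, inhibit or clear Mmps 13 were tested across cell types, and the counts of higher and lower in AΦ were 7 and 3 in TR-AΦ at 4-weeks, 6 and 2 at 32-weeks and 8 and 2 in BM-AΦ, where 48.2%, 47.3% and 50.9% of all genes were called. The list median was 0.47, 0.45 and 0.86, against the same medians of all genes as above. Slpi, a serine protease inhibitor, was higher in TR-AΦ at 4-weeks (1.19 ± 0.31) and at 32-weeks (2.99 ± 0.31) and in BM-AΦ (3.04 ± 0.31). Thbs1, the matrix protein thrombospondin 1, was the gene with the lowest value (-7.05 ± 0.76, -8.26 ± 0.76 and -7.44 ± 0.76), and the syndecan Sdc1 was lower too (-0.76 ± 0.18, -1.33 ± 0.18 and -1.19 ± 0.18). The tetraspanin Cd63, which binds Timp1, was higher at 4-weeks in TR-AΦ (2.63 ± 0.41) and in BM-AΦ (2.62 ± 0.41). Plau, the urokinase that activates plasminogen, was higher at 4-weeks in TR-AΦ (1.86 ± 0.28) and in BM-AΦ (1.35 ± 0.28). Cd44, a receptor that docks Mmp9, was higher at 32-weeks in TR-AΦ (1.33 ± 0.18) and in BM-AΦ (0.96 ± 0.18). Lcn2, a neutrophil granule protein that binds Mmp9, was lower in TR-AΦ at 4-weeks (-2.02 ± 0.60), where 3 of 6 neutrophil markers tested were lower too. Without the pair with high neutrophil markers Lcn2 was not called (-1.28 ± 0.61, adjusted p = 0.0922), the other genes of the 4 lists called at 4-weeks were, and the counts of this list were 8 higher and 3 lower of 14 tested. With time in CD45.2 monocytes 4 of 15 rose and 3 fell, where 14.9% of all genes were called, and without the pair 2 rose and none was called lower. Cd63 (2.72 ± 0.46) and Plau (1.26 ± 0.32) were among those that rose, and the serine protease inhibitor Serpinb2 (-1.93 ± 0.34), Slpi (-1.44 ± 0.40) and Cd44 (-1.0 ± 0.23) fell. Without the pair Cd63 was called (2.37 ± 0.50), Plau (0.93 ± 0.33, adjusted p = 0.103), Slpi (-1.46 ± 0.49, adjusted p = 0.0867) and Cd44 (-0.81 ± 0.24, adjusted p = 0.0586) were not, and Serpinb2 was below the filter.

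Of 13 matrix substrates 5 were tested across cell types. Spp1, the secreted phosphoprotein osteopontin, was higher in AΦ (4.94 ± 0.24, 3.80 ± 0.24 and 5.32 ± 0.24), and the proteoglycan Vcan was lower (-4.90 ± 0.47, -5.35 ± 0.47 and -5.24 ± 0.47). Fibronectin, Fn1, was lower in TR-AΦ at 4-weeks (-1.38 ± 0.24) and at 32-weeks (-1.04 ± 0.24). The counts of higher and lower were 1 and 3, 3 and 2, and 3 and 1, beside the 48.2%, 47.3% and 50.9% of all genes called. The list medians were -0.54, 0.87 and 1.64, over only 5 genes. The basement membrane collagen chains Col4a1 and Col4a2 were the 2 of 4 tested that rose in TR-AΦ between 4-weeks and 32-weeks, in FA (2.07 ± 0.21 and 2.27 ± 0.23) and in PM2.5 (1.79 ± 0.21 and 2.03 ± 0.23), where 0.15% and 0.268% of all genes were called higher and the lists of proteases and of activators and inhibitors gave no call. Spp1 was the 1 of 5 that rose in CD45.2 monocytes (1.33 ± 0.30), also without the pair (1.43 ± 0.34). In all 6 comparisons of PM2.5 with FA no gene of the 4 lists was called.

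For each member with a mean of at least 1 FPKM, the 3 named genes with the most similar pattern were found by Pearson's r of log2(FPKM + 1) over the 36 libraries. The libraries share their cell types, which alone can raise r, so r within the 18 AΦ and the 18 monocyte libraries is given for the first gene of each. It was Anpep, aminopeptidase N, for Mmp12 (r = 0.92, 0.95 in AΦ and 0.92 in monocytes), with H2-M2 and Slc30a4 next (0.89 and 0.82). Mmp13 was most like Tmem119 (0.92, 0.92 and 0.89), Plxna4 and Blnk, and Mmp14 most like Cxcl16 (0.92, 0.87 and 0.92), Blnk and C3ar1. Timp2 was most like Ephx1 (0.91, 0.77 and 0.95), Rab11fip5 and Igf1, and Timp3 most like Vcam1 (0.92, 0.55 and 0.95), Ap1b1 and Ston1. For Mmp9 the first gene was St3gal6 (0.90, 0.70 and 0.83), before S1pr1 and P2rx7. Of these first genes, those of Mmp9, Mmp14, Timp2 and Timp3 had a lower r within AΦ than over all 36 libraries, and those of Mmp12 and Mmp13 did not. The first genes of Mmp8 and Mmp19 had the lowest r within AΦ. Mmp8 went with Gda (0.89, 0.44 in AΦ and 0.96 in monocytes), Hif1a and Ddi2, and Mmp19 with Csf2rb (0.92, 0.38 and 0.85), Slc39a14 and Cd300lf. Among the members, Timp2 and Timp3 were the most similar pair within monocytes (0.89), and Mmp12 and Mmp14 within AΦ (0.89).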

How the data were processed

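RNA-seq libraries of sorted lung AΦ and monocytes were analysed from 1 table of 27562 genes and 36 libraries. The authors aligned reads with STAR to mm10 and deposited FPKM computed with Cufflinks, and their Cuffdiff comparisons were not used. Groups came from the sample titles. The 9 members and all gene lists were chosen with earlier results of these data known. The named genes are the 9 members, up to 3 genes per list, direction and comparison with the largest called change, and the 3 genes most like each member that averages 1 FPKM or more. A list gene that this rule names is not reported here. FPKM were analysed as log2(FPKM + 1), a scale that understates changes of low genes, with limma 3.58.1 in R 4.3.3 (1 mean per group, variance trend) over genes averaging 1 FPKM or more: 12665 for AΦ, 12856 for monocytes and 13307 for both. There were 18 comparisons, with Benjamini-Hochberg adjustment over all genes tested and a threshold of 0.05. The procedure was tested on simulated data. Depth is unknown, and p-values measure the spread between libraries. The labels do not tie libraries of different cell populations to mice. Locations are from GENCODE M21 and start-site windows from RefSeq (GRCm38.p6). Alternatives were a pseudocount of 0.1, no filter, TPM, quantile normalization, only the groups compared, a replicate block and leaving out each library. Markers of AΦ, monocytes, neutrophils, interstitial macrophages, dendritic cells, fibroblasts, endothelium, epithelium, red cells, lymphocytes, and eosinophils with basophils were summed per library. Python 3.11.15 was used for descriptions and figures.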

Additional observations from a re-analysis of the deposited data

Results flagged for a closer look

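The change over time differed between TR-AΦ and CD45.2 monocytes by an interaction test for Timp2 (-2.48), Timp3 (-1.75), Mmp14 (-2.58), Mmp13 (-2.47) and Mmp9 (-2.39, log2 scale), and the difference between donor and host cells differed between AΦ and monocytes for Timp2 (2.1). These 6 tests share libraries with each other, and their adjusted p-values lie between 6.38e-05 and 0.0391. The call for Mmp9 held in 10 of 24 runs without 1 library, and the other 5 held in all 24. Without the 2 monocyte libraries of 4-weeks with high neutrophil markers Mmp13 (adjusted p = 0.0539) and Mmp14 (0.067) were not called, nor without all 4 libraries of 4-weeks numbered 2 (0.135 and 0.17).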

How the results depend on the processing

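Of 24 member values past the threshold none changed sign in 530 values under alternative settings, 476 stayed past the threshold and 54 did not, of which 34 were runs without 1 library. Of 96 values not past it 120 of 1612 alternative values changed sign and 26 passed. The number of members called moved by more than 1.5 times in these cases. For CD45.1 against CD45.2 monocytes, 1 as reported, it was 0 with quantile normalization, 2 with the replicate block and between 0 and 1 without single libraries, while with only the groups compared Mmp9 (adjusted p = 0.034) was called in place of Timp2 (0.0878). For the interaction of origin with cell type, 1 as reported, it was 2 with the replicate block, 2 with only the groups compared and between 1 and 2 without single libraries, and Mmp9 was the second member in the first 2 of these settings (adjusted p = 0.0484 and 0.0179). For the interaction of time with cell type, 5 as reported, it was 3 without the 2 monocyte libraries with high neutrophil markers and 3 without all 4 libraries of 4-weeks numbered 2. The cause was not tested. Of 72 alternative values of r for the genes most like a member 51 stayed within the interval of r and 21 moved, none to the other sign. Without single libraries the counts were otherwise 2 to 4 for TR-AΦ against monocytes at 4-weeks, 6 to 7 at 32-weeks, 2 to 4 for BM-AΦ against CD45.1 monocytes, 5 to 6 for time in CD45.2 monocytes and 4 to 5 for its interaction with cell type, and 0 throughout for PM2.5 against FA. TPM moved the median of all genes by over 0.1, to 0.168, 0.113 and 0.288 for AΦ against monocytes, 0.127 for PM2.5 in 4-weeks monocytes, -0.105 for origin in monocytes and 0.179 for its interaction, with no change of direction among called members.

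Whether the replicate numbers pair libraries of the same mouse could not be decided. Deviations from the group means correlated over 0.1 in 4 of 18 pairs of same-numbered libraries at 4-weeks (r from -0.09 to 0.21). At 32-weeks they did in 4 of 84 pairs (-0.08 to 0.16). Many of these pairs set FA against PM2.5 libraries, which come from different mice, so the counts cannot decide which libraries share a mouse. The block used next spans both exposures and is not a block of mice. With the number as a block Mmp9 was called as well at 4-weeks against monocytes (adjusted p = 0.0132), with time in CD45.2 monocytes (0.027), for origin in monocytes (0.0454) and in the interaction of origin with cell type (0.0484), Mmp8 was called at 32-weeks against monocytes (0.0354), and no called member was lost.

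Depth is unknown, so no counting error can be given, and levels near 0 (Timp1, and Mmp13 and Mmp9 in AΦ) may be failed estimates. With 3 mice per group the SE of the exposure comparisons was 0.28 to 0.92 in AΦ and 0.40 to 0.90 in monocytes on the log2 scale. Changes near that size or below it were not detectable. Changes well above the SE could miss the threshold too, as that of Mmp19 in CD45.1 monocytes did.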

Other observations

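Mmp8 and Mmp19 were high in the same monocyte libraries of FA at 32-weeks, and over the 18 monocyte libraries their log2(FPKM + 1) had r = 0.84, against 0.49 over the 18 AΦ libraries and -0.02 over all 36. The 3 monocyte libraries with the highest Mmp19, at 63.1, 94.2 and 96.4 FPKM, were CD45.1 monocytes of FA numbered 1 and 2 and CD45.2 monocytes of FA numbered 2. Thbs1 in these 3 was 1462, 3137 and 2765 FPKM, against 165 to 793 in the other 15. These libraries were picked by their values, so no test was run.

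Markers of cells outside the sorting gates were summed over all 36 libraries. Epithelial markers summed to between 33.6 and 183 FPKM, endothelial markers to between 5.81 and 50.1, and fibroblast markers to at most 26.2, in CD45.2 monocytes of 32-weeks. Lymphocyte markers summed to at most 82.1, red cell markers to at most 157 and the 5 eosinophil and basophil markers in the table to at most 5.71, all 3 in CD45.2 monocytes of PM2.5 at 4-weeks.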
